A study of Homo sapiens with 3 samples.

Results

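The expression of 35 genes for aminoacyl-tRNA synthetases was followed in HT29, an established line of human colorectal cancer cells, treated with a linderapyrone derivative. The genes were chosen by symbol in the annotation of the array platform, and they are 35 of 18639 genes measured, read by 40 of 24460 gene probes. A symbol ending in 2 was taken as a mitochondrial enzyme, which gave 16 mitochondrial genes. GARS1 and KARS1 each encode both a cytosolic and a mitochondrial form and were kept apart as 2 dual genes, and the other 17 genes were taken as cytosolic. Cells were kept for 24 h in medium with the derivative at 20 µM, with the derivative at 5 µM, or with DMSO, its solvent. Each of these 3 groups was 1 sample on 1 array of 1 colour, and the labels give no further change to the cells.

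Aminoacyl-tRNA synthetases join each amino acid to its tRNA, and so set the genetic code at the step before the ribosome. Human cells hold separate enzymes, mostly from separate nuclear genes, for translation in the cytosol and for translation inside mitochondria. Many cytosolic synthetase genes are targets of ATF4, the transcription factor that is made when the kinases of the integrated stress response phosphorylate eIF2α and when amino acids run short.

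With 1 array per group there was no replicate, so no test could be made and the variation from culture to culture is unknown. How precise each value is was limited by the number of arrays. The only error at hand is technical, the disagreement of paired probes for the same gene. Over 2007 genes this gave a technical SD per log2 ratio of 0.14 for 20 µM against DMSO, and it was 0.11 for 5 µM against DMSO and 0.12 for 20 against 5 µM. It leaves out differences between cultures and shifts of a whole array. The median spot signal was 107 to 117 across arrays and 85.6% to 86.2% of gene probes were detected. Of 10 colon epithelial markers on the array, 10 were detected on all 3 arrays. Their median normalized signals were 771 to 1151, though CEACAM5 among them was dim at 68 to 102. Detection was not particular to them, since 4 of 6 fibroblast, 3 of 4 immune and 3 of 4 endothelial markers were also detected on all 3. The markers of fibroblasts, blood and immune cells and endothelium had median normalized signals of at most 86.4 on any array, near the floor, though LYZ among the immune markers was bright at 12033 to 13916. All 35 synthetase genes were detected on all 3 arrays. A normalized signal is a spot's brightness after background correction with an offset of 50 and quantile normalization, in arbitrary units, and a log2 ratio compares such signals.

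At 20 µM the cytosolic synthetase genes stood above DMSO as a group, while the mitochondrial ones were centred on 0. The median log2 ratio was 0.38 over the 17 cytosolic genes and -0.0063 over the 16 mitochondrial genes, against 0.0071 over all 16062 genes detected on both arrays. Ratios above 0 were found for 13 of 17 cytosolic genes and 8 of 16 mitochondrial genes, against 52.8% of all genes. The genes at least 1.5-fold higher at 20 µM were WARS1, SARS1, AARS1 and IARS1, all cytosolic, which is 4 of 35 members against 1.94% of all genes. WARS1 alone was at least 2-fold higher, against 0.442% of all genes. No member was at least 1.5-fold lower, against 1.84% of all genes. Under median scaling in place of quantile normalization, WARS1 and SARS1 stayed past 1.5-fold, against 1.40% of all genes, while AARS1 and IARS1 had log2 ratios of 0.54. The counts above 0 were then 12 of 17 cytosolic and 5 of 16 mitochondrial genes, against 52.7% of all genes. Under the scanner's background column, where paired probes were uncorrelated, the cytosolic median was 0.10. With GARS1 and KARS1 counted as cytosolic, the cytosolic median was 0.27. In RNA of a whole culture, a change in the RNA of each cell and a change in the share of cells that make it cannot be told apart.

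**Figure D1:**
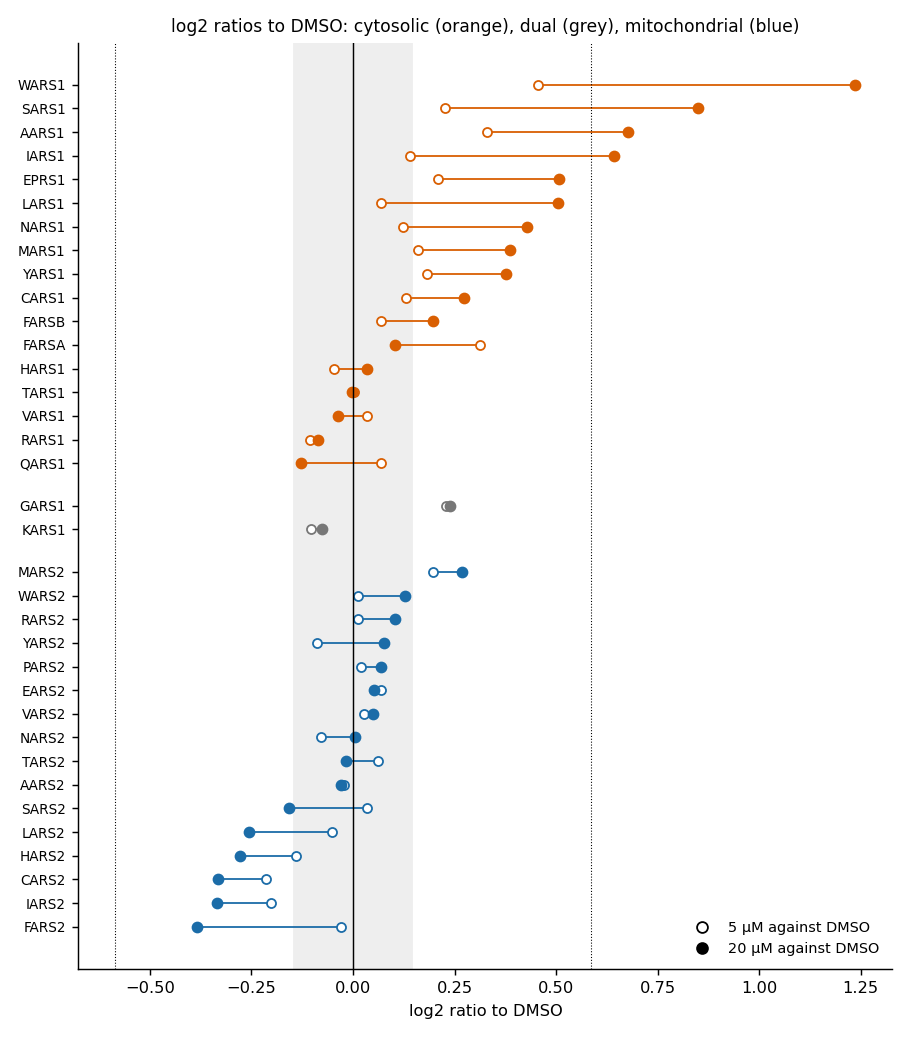
Log2 ratio of each of the 35 synthetase genes for 20 µM and 5 µM against DMSO, with cytosolic, dual and mitochondrial genes in separate groups; each point is 1 gene on 1 pair of arrays, filled for 20 µM and open for 5 µM. The grey band is 1 technical SD either side of 0 and the dotted lines mark 1.5-fold. WARS1 lies farthest from 0 at 1.24 and FARS2 is the lowest at -0.38 at 20 µM.

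WARS1, which encodes the cytosolic tryptophanyl-tRNA synthetase, differed most. Its normalized signal reached 858 in DMSO, 1177 at 5 µM and 2024 at 20 µM, and was thus highest at the highest dose. That is 2.36-fold higher at 20 µM than in DMSO (log2 ratio 1.24), rank 35 of the 16062 genes, and 1.37-fold higher at 5 µM than in DMSO. SARS1, the cytosolic seryl-tRNA synthetase, had 1599.6 in DMSO, 1873 at 5 µM and 2881 at 20 µM. It was 1.80-fold higher at 20 µM than in DMSO, with most of the difference between 5 and 20 µM, where the fold was 1.54. A second SARS1 probe gave a log2 ratio of 0.60 at 20 µM against DMSO, beside 0.85 for the probe that stands for the gene.

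AARS1, the cytosolic alanyl-tRNA synthetase, had 4152 in DMSO, 5217 at 5 µM and 6637 at 20 µM, in near-equal steps of 1.26-fold for 5 µM against DMSO and 1.27-fold for 20 against 5 µM. IARS1, the cytosolic isoleucyl-tRNA synthetase, had 2279 in DMSO, 2512 at 5 µM and 3557 at 20 µM. Most of this 1.56-fold difference at 20 µM against DMSO lay above 5 µM, since the gene was 1.42-fold higher at 20 than at 5 µM. In the ranking of all 16062 genes by the ratio of 20 µM to DMSO, SARS1 stood at 125, AARS1 at 225 and IARS1 at 254.

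**Figure D2:**
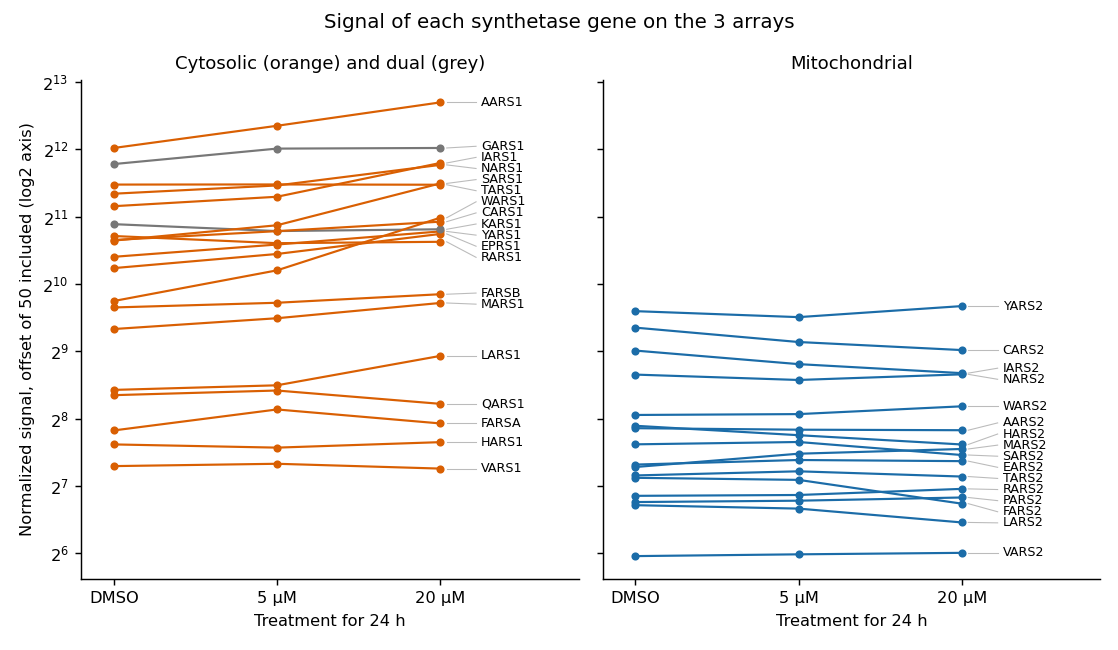
Normalized signal, on a log2 axis in arbitrary units, of the 35 synthetase genes in DMSO and at 5 and 20 µM; each point is 1 array, with cytosolic and dual genes in the left panel and mitochondrial genes in the right. WARS1 has 858, 1177 and 2024 in dose order, while TARS1 has 2848, 2852 and 2843.

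The sequences in front of the genes are shown for the members in which a known stress or interferon motif was found, since both pathways have synthetases among their targets. RefSeq promoter windows, GRCh38.p14, covered 30 of the 35 genes, and the 250 bases before each annotated start were searched on both strands. The C/EBP-ATF response element, to which ATF4 binds with a C/EBP partner, was searched as TGATGNAAN. It was found in AARS1, GARS1, IARS1 and YARS2, 4 of 30 genes, against 3.87% of all 27305 genes in the table, and in 4 of 39 windows of the members, against 3.13% of all 35116 windows. The stretches are from AARS1 (chr16:70289650-70289729, minus strand), GARS1 (chr7:30594798-30594877, plus strand), IARS1 (chr9:92293698-92293777, minus strand) and YARS2 (chr12:32756050-32756129, minus strand). They are read 5′ to 3′ along the gene, and capitals mark the motif, which lies on the strand of the gene in YARS2 and on the opposite strand in the others.
AARS1: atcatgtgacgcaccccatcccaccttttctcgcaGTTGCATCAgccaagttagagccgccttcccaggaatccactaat
GARS1: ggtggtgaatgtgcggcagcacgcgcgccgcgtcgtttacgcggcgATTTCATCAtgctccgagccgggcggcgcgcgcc
IARS1: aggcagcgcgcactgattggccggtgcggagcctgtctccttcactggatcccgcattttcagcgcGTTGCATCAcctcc
YARS2: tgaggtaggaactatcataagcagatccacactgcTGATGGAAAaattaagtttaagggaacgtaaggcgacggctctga
The motif ends 180 bases before the start in AARS1, 26 in GARS1, 6 in IARS1 and 189 in YARS2. Their log2 ratios at 20 µM against DMSO were 0.68, 0.24 and 0.64, while that of YARS2, the mitochondrial tyrosyl enzyme with the same letters, was 0.08. WARS1 and SARS1, the genes with the highest ratios, are not among those that hold these letters in this window.

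WARS1 is also a well-known gene of the interferon-γ response. An interferon-stimulated response element, searched as GAAA, any 2 bases and GAAA after the WARS1 sequence had been seen, was found in WARS1 and EARS2, 2 of 30 genes, against 3.71% of all genes in the table, and in 3 of 39 windows of the members, against 3.02% of all windows. The 3 windows hold 2 sites, because EARS2 has windows for 2 starts that share 1 site. The WARS1 stretch (chr14:100375358-100375437, minus strand) lies before the more downstream of 2 annotated starts, which are 980 bases apart, and capitals mark the motif. In the EARS2 stretch (chr16:23557521-23557600, minus strand) the motif lies on the opposite strand.
WARS1: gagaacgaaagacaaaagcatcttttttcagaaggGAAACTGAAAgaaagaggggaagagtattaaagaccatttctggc
EARS2: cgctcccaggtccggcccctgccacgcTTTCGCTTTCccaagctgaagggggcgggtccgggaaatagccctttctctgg
EARS2, the mitochondrial glutamyl enzyme, had a log2 ratio of 0.05 at 20 µM against DMSO. A match describes the letters in the window and was not tied to any measured binding.

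Below the 1.5-fold line stood a middle group of cytosolic genes. EPRS1 encodes a fused enzyme that charges the tRNAs of glutamate and of proline. It had 1205 in DMSO, 1393 at 5 µM and 1713 at 20 µM, a log2 ratio of 0.51 at 20 µM against DMSO. LARS1, the leucyl enzyme, which also serves as a leucine sensor for mTORC1, had 344 in DMSO, 360.4 at 5 µM and 488 at 20 µM, a log2 ratio of 0.50. NARS1, the asparaginyl enzyme, had 2592 in DMSO, 2822 at 5 µM and 3488 at 20 µM, a log2 ratio of 0.43. These 3 genes were highest at 20 µM, as were the next 3. The methionyl enzyme MARS1 had 643 in DMSO, 719 at 5 µM and 841 at 20 µM, a log2 ratio of 0.39. YARS1, the tyrosyl enzyme, had 1354 in DMSO, 1536 at 5 µM and 1758 at 20 µM, a log2 ratio of 0.38. CARS1, the cysteinyl enzyme, had 1609 in DMSO, 1763 at 5 µM and 1943 at 20 µM, a log2 ratio of 0.27. All 6 were higher at 20 than at 5 µM.

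Not every cytosolic gene stood above DMSO. TARS1, the threonyl enzyme, had 2848 in DMSO, 2852 at 5 µM and 2843 at 20 µM, values that lie within less than 1 technical SD of each other. HARS1, the histidyl enzyme, at 0.03, VARS1, the valyl enzyme, at -0.04, RARS1, the arginyl enzyme, at -0.09 and QARS1, the glutaminyl enzyme, at -0.13 also stood within 1 technical SD of 0 at 20 µM against DMSO. QARS1 had 326 in DMSO, 342 at 5 µM and 298 at 20 µM, and RARS1 was highest in DMSO, with 1677 in DMSO, then 1558 at 5 µM and 1579.7 at 20 µM. The α and β subunits of the cytosolic phenylalanyl enzyme, FARSA and FARSB, had ratios of 0.10 and 0.20. FARSA had 226 in DMSO, 281 at 5 µM and 243 at 20 µM, and it alone, of the 13 cytosolic genes above 0 at 20 µM, was highest at 5 µM.

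Of the dual genes, GARS1, which charges glycine, had 3518 in DMSO, then 4125 at 5 µM and 4152 at 20 µM. Its log2 ratio to DMSO was 0.23 at 5 µM and 0.24 at 20 µM, so both doses gave nearly the same value. KARS1, the lysyl enzyme, had 1894 in DMSO, 1764 at 5 µM and 1797 at 20 µM, a log2 ratio of -0.08 at 20 µM against DMSO.

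Several cytosolic synthetases are held in the multisynthetase complex, and its members divided. EPRS1, IARS1, LARS1 and MARS1 had log2 ratios of 0.39 to 0.64 at 20 µM against DMSO. KARS1, QARS1 and RARS1, which belong to the same complex, had ratios of -0.13 to -0.08. The median over these 7 genes was 0.39, beside 0.26 over the 12 cytosolic and dual genes outside the complex. AIMP1, a scaffold protein of the complex, had 1700 in DMSO, 1707 at 5 µM and 2036 at 20 µM, a log2 ratio of 0.26.

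Synthetases fall into 2 classes by the fold of their catalytic domain. At 20 µM against DMSO the cytosolic median was 0.38 for the 9 class I genes and 0.20 for the 7 class II genes, with EPRS1, which holds one of each, left out. Both classes held genes at least 1.5-fold higher, WARS1 and IARS1 in class I, SARS1 and AARS1 in class II. Among the mitochondrial genes the medians were 0.051 for class I and -0.030 for class II.

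The mitochondrial genes spanned log2 ratios of -0.38 to 0.27 at 20 µM against DMSO. At the lower end, FARS2, the mitochondrial phenylalanyl enzyme, had 139 in DMSO, 136 at 5 µM and 107 at 20 µM, and its second probe gave -0.35 beside -0.38. IARS2, the isoleucyl enzyme, had 515 in DMSO, 448 at 5 µM and 409 at 20 µM, and its log2 ratio was -0.34, with -0.65 on a second probe. CARS2, the cysteinyl enzyme, had 653 in DMSO, 563 at 5 µM and 518 at 20 µM, a log2 ratio of -0.33. In these 3 genes the 20 µM value stood below DMSO by more than 2 technical SD. From the highest of all 16062 genes, FARS2 ranked 15216, IARS2 14958 and CARS2 14946, so many other genes lay lower still. HARS2, the histidyl enzyme, had 238 in DMSO, 216 at 5 µM and 196 at 20 µM, a log2 ratio of -0.28.

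LARS2, the leucyl enzyme, had a ratio of -0.26, which its second probe, at 0.016, did not share. MARS2, the methionyl enzyme, was the highest of the mitochondrial genes, with 155 in DMSO, 178 at 5 µM and 187 at 20 µM, a log2 ratio of 0.27. YARS2, the tyrosyl enzyme, had 773 in DMSO, 727 at 5 µM and 815 at 20 µM, and its log2 ratio of 0.08 turned to -0.038 under median scaling. The remaining 10 mitochondrial genes, YARS2 among them, lay between -0.16 for SARS2 and 0.13 for WARS2. VARS2 was close to the limit of detection, with a lowest signal of 1.08 times the threshold, and a second VARS2 probe was not detected on any array.

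Because the offset understates the differences of dim probes, the contrast was also read without it and among brighter probes. In the value table that the authors deposited, taken as log2(value) with no offset, the cytosolic median was 0.34 and the mitochondrial median -0.047 at 20 µM against DMSO. FARS2 at -0.72 and LARS2 at -0.59 were at least 1.5-fold lower there, 2 of 35 members against 7.06% of all genes in that table. The 4 members at least 1.5-fold higher in it stood against 5.70% of all genes. Among genes with a mean normalized signal of 200 or more, the median was 0.39 for 15 cytosolic and -0.030 for 7 mitochondrial genes, against 0.0025 for all 5234 such genes.

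**Figure D3:**
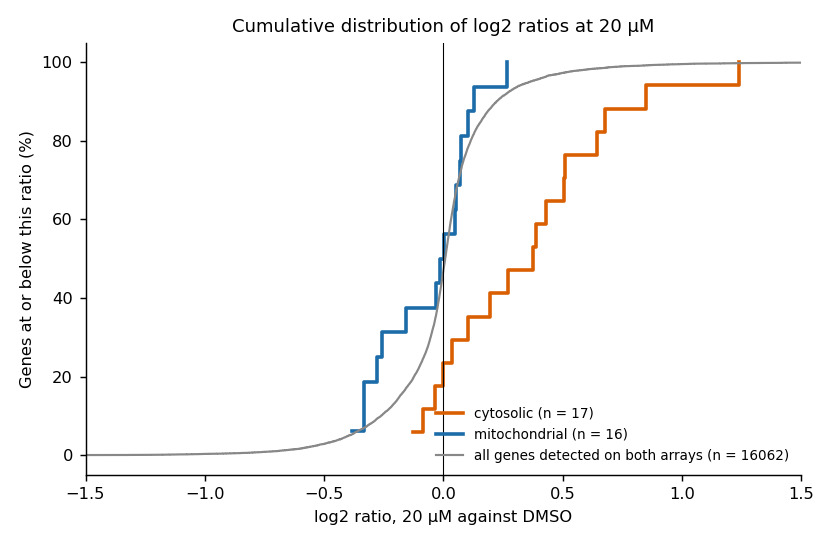
Cumulative share of genes, in percent, at or below each log2 ratio for 20 µM against DMSO, for the cytosolic synthetases, the mitochondrial synthetases and all genes detected on both arrays. The cytosolic median is 0.38 and the mitochondrial median -0.0063, beside 0.0071 for all genes.

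The cytosolic and mitochondrial enzymes for the same amino acid were next set side by side, in 16 pairs that use EPRS1 against both EARS2 and PARS2. At 20 µM against DMSO the cytosolic gene had the higher ratio in 14 of 16 pairs, with a median difference of 0.45 between the log2 ratios, cytosolic minus mitochondrial. The difference was largest for tryptophan, where WARS1 minus WARS2 was 1.11, then serine at 1.01 and isoleucine at 0.98. Leucine at 0.76, alanine at 0.71 and cysteine at 0.61 followed. In 10 pairs the difference exceeded 2 technical SD of a difference, which is 0.41. How often pairs of other genes differ by as much was not counted. The pairs with the higher ratio in the mitochondrial gene were arginine, at -0.19, and valine, at -0.085, and threonine was near 0 at 0.014.

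Where the pairs were far apart, both partners could contribute. WARS2, the mitochondrial tryptophanyl enzyme, had 266 in DMSO, 268 at 5 µM and 290.3 at 20 µM, so the tryptophan difference lay mostly in WARS1. SARS2, the mitochondrial seryl enzyme, had 196 in DMSO, 201 at 5 µM and 176 at 20 µM, a ratio of -0.16. For isoleucine the genes stood on opposite sides of 0, IARS1 at 0.64 and IARS2 at -0.34. For cysteine, CARS1 stood at 0.27 and CARS2 at -0.33, so neither passed 1.5-fold although their difference was 0.61.

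HARS1 and HARS2 start back to back on chromosome 5, with 84 bases between their RefSeq starts (chr5:140691371-140691454, shown on the plus strand, along HARS2). No letters are in capitals because the stretch is shown as the shared spacer and neither motif was found in it.
HARS1 to HARS2: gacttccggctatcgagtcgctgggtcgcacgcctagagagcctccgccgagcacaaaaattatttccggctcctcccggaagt
The log2 ratios at 20 µM against DMSO were 0.03 for HARS1, with 196, 189.7 and 201 in dose order, and -0.28 for HARS2.

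**Figure D4:**
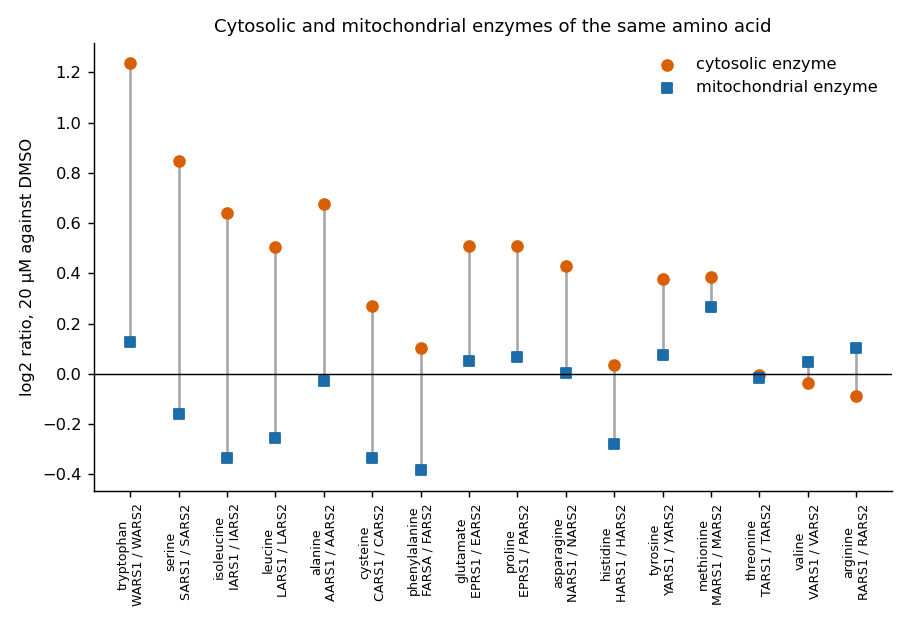
Log2 ratio for 20 µM against DMSO of the cytosolic and mitochondrial gene of each of 16 pairs that charge the same amino acid, joined by a line. The cytosolic gene is the higher in 14 pairs, with tryptophan the widest at a difference of 1.11.

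At 5 µM against DMSO no member was at least 1.5-fold higher, against 0.386% of all genes, and none was at least 1.5-fold lower, against 0.0871% of all genes. The cytosolic median was 0.13 and the mitochondrial median -0.0048, with 15 of 17 cytosolic and 8 of 16 mitochondrial genes above 0, against 52% of all genes. The direction of the cytosolic group at this dose depends on the scaling. Median scaling of the arrays in place of quantile normalization gave a median of -0.10 with 3 of 17 genes above 0, against 45.6% of all genes. That scaling placed the 5234 brighter genes at -0.19 at 5 µM and at -0.098 at 20 µM against DMSO. Relative to those brighter genes, the cytosolic median under it was 0.093 at 5 µM and 0.34 at 20 µM.

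Median scaling also took 12 of the 15 cytosolic genes that stood above 0 to below 0, and left WARS1, AARS1 and FARSA above 0. Over the alternatives other than the scanner's background column, WARS1 had log2 ratios of 0.24 to 0.47 at 5 µM against DMSO and AARS1 of 0.084 to 0.33. FARSA ranged over 0.15 to 0.36, MARS2 over 0.081 to 0.25, and GARS1 came as near 0 as 0.016. VARS2, near the limit of detection, was also above 0 in each. SARS1, at 0.23, and IARS1, at 0.14, turned to -0.031 and -0.10 at their lowest. Of the 16 pairs, the cytosolic gene was higher in 13 at 5 µM, with a median difference of 0.19, and in 11 under median scaling.

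Between the doses, WARS1 and SARS1 were at least 1.5-fold higher at 20 than at 5 µM, against 0.917% of all genes, with log2 ratios of 0.78 and 0.62. The second SARS1 probe had 0.37 in this comparison, and the mean of both probes, 0.49, was short of 1.5-fold. No member was at least 1.5-fold lower, against 0.886% of all genes. The cytosolic median was 0.19 and the mitochondrial median -0.012, and 13 of 17 cytosolic and 7 of 16 mitochondrial genes were above 0, against 49.5% of all genes. The cytosolic gene was higher in 14 of 16 pairs, with a median difference of 0.24. This comparison shares the 20 µM array with the first and the 5 µM array with the second, and both doses were set against the same DMSO array, so the 3 comparisons are not independent.

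In dose order, 11 of 17 cytosolic genes were ordered upward through DMSO, 5 and 20 µM and 0 downward, where 24.5% of all genes were ordered upward and 23.0% downward. The mitochondrial genes split, with 5 of 16 ordered upward and 6 downward, namely AARS2, CARS2, FARS2, HARS2, IARS2 and LARS2. Under median scaling the 5234 brighter genes had a median of -0.19 at 5 µM against DMSO. That scaling left 2 of 17 cytosolic genes ordered upward and 2 downward, against 18.5% and 22.4% of all genes. The place of the 20 µM array was less dependent on it: 12 of 17 cytosolic genes were highest at 20 µM, and 11 under median scaling, against 38.5% and 33.7% of all genes.

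**Figure D5:**
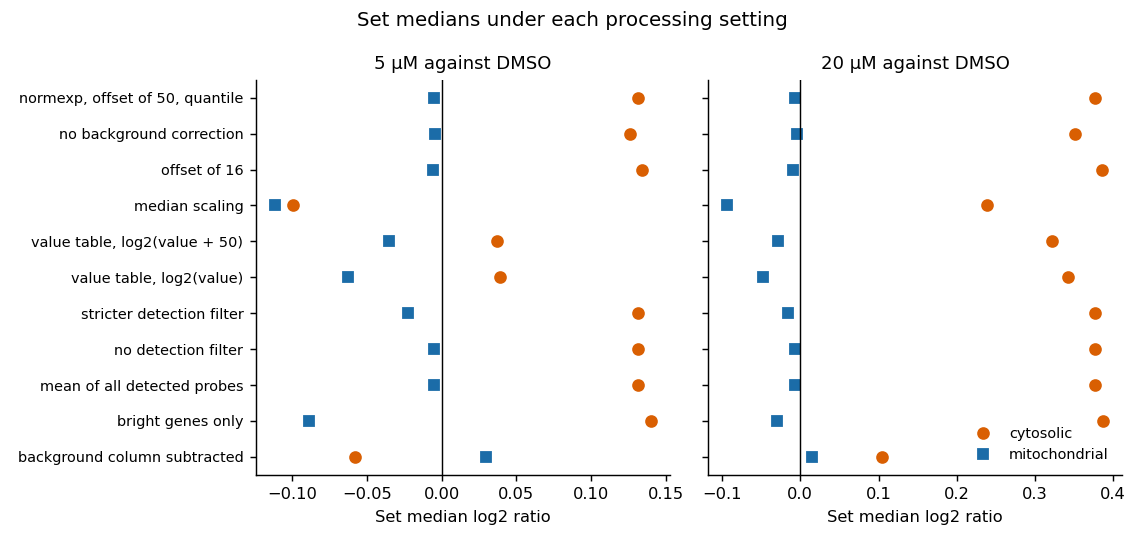
Median log2 ratio of the cytosolic and mitochondrial synthetase genes for 5 µM and 20 µM against DMSO, with the processing described here in the top row and an alternative in each other row. At 5 µM against DMSO the cytosolic median is 0.13 and turns to -0.10 under median scaling.

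Genes that act around the synthetases were described by lists, which were chosen with earlier results of these data known. The stress regulators come first. ATF4 had 2656 in DMSO, 3124 at 5 µM and 4020 at 20 µM, a log2 ratio of 0.60 at 20 µM. EIF2AK3, the eIF2α kinase PERK of the endoplasmic reticulum, had a ratio of 1.02, and PPP1R15A and PPP1R15B, which direct the phosphatase to eIF2α, had 0.66 and 0.38. In this list of sensors and effectors the median was 0.17, with 6 of 10 genes above 0, against 52.8% of all genes, and 3 at least 1.5-fold higher, against 1.94% of all genes. Under median scaling the median was 0.081 and 1 gene was at least 1.5-fold higher, against 1.40% of all genes. ATF4 then stood at 0.45 and PPP1R15A at 0.58, just short of 1.5-fold.

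Of 26 ATF4 targets other than synthetases, 6 were at least 1.5-fold higher, against 1.94% of all genes, and 19 above 0, against 52.8%, at 20 µM against DMSO. The median was 0.30. Under median scaling it was 0.18, with 3 genes at least 1.5-fold higher, against 1.40% of all genes. DDIT3, the stress transcription factor CHOP, had 3015 in DMSO, 5761 at 5 µM and 7454 at 20 µM. ASNS, asparagine synthetase, had 5338, 5951 and 8837 in the same order, and its ratio of 0.73 lay between those of AARS1 and SARS1. NUPR1, a stress-induced chromatin protein, stood at 1.02 and GDF15, a secreted stress cytokine, at 0.65, which became 0.56 under median scaling, short of 1.5-fold. The median of this list was 0.083 at 5 µM and turned to -0.10 under median scaling, which placed the 5234 brighter genes as a whole at -0.19.

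Interferon-stimulated genes differed from the ATF4 targets in dose order under quantile normalization. Of 17, 13 were above 0 at 20 µM against DMSO, against 52.8% of all genes, with a median of 0.51. At least 1.5-fold higher were 7 of the 17, against 1.94% of all genes. At 5 µM against DMSO 5 were above 0, against 52% of all genes, with a median of -0.12. At least 1.5-fold lower was 1 gene, at -0.90, against 0.0871% of all genes. That gene was also the lowest of the list at 20 µM against DMSO, at -0.49. For 20 against 5 µM 17 of 17 were above 0, against 49.5% of all genes, with a median of 0.59. Under median scaling both lists had medians below 0 at 5 µM against DMSO, -0.28 here and -0.10 for the ATF4 targets. Of the 17 interferon-stimulated genes 0 were then above 0, against 45.6% of all genes. At 20 µM against DMSO the medians under that scaling were 0.39 here and 0.18 for the ATF4 targets. MX2, an antiviral GTPase, had 611 in DMSO, 580 at 5 µM and 1379 at 20 µM. IFI44L stood at 1.19, HERC5, a ligase for ISG15, at 1.00 and ISG20, an exonuclease, at 0.94 at 20 µM against DMSO. At 5 µM against DMSO, ISG20 stood at 0.17, IFI44L at 0.046, HERC5 at 0.025 and MX2 at -0.076, beside 0.46 for WARS1. The part of either pathway in the WARS1 difference was not tested.

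Genes of tRNA handling and of elongation were centred near 0. Of 10 genes of tRNA maturation and export, 4 were above 0 at 20 µM against DMSO, against 52.8% of all genes, with a median of -0.022. XPOT, the nuclear export receptor of tRNA, lay farthest from 0, with 698 in DMSO, 757 at 5 µM and 1103 at 20 µM, a log2 ratio of 0.66. SSB, the La protein that binds new tRNA ends, stood at -0.26, ELAC1, a tRNA 3′ processing nuclease, at -0.33, and XPO5, an export receptor for microRNA precursors, at 0.16. The 6 cytosolic elongation factors had a median of -0.016, with EEF2 at 0.20, EIF5A at -0.37, EEF1B2 at -0.21 and EEF1G at -0.071.

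The 12 mitochondrial translation factors had a median of -0.20 at 20 µM against DMSO, beside -0.0063 for the mitochondrial synthetases. Of the 12 factors 2 were above 0, against 52.8% of all genes. No factor was at least 1.5-fold lower, against 1.84% of all genes. TUFM, the mitochondrial elongation factor Tu, had 1119 in DMSO, 1060.3 at 5 µM and 868 at 20 µM, a log2 ratio of -0.37. Its partner TSFM stood at -0.45, the initiation factor MTIF3 at -0.45 and the release factor MTRF1 at -0.39.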

How the data were processed

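RNA of 3 HT29 cultures was measured on Toray arrays of 1 colour, 1 per group. Per the file headers, the deposited scanner files hold each spot's median brightness, a linear intensity before any background correction. The authors also deposited a value table of intensity per probe, with a median of 25 on each array. No source used here names the software that made it. Sample titles give the doses in mM and the treatment labels in µM, and µM was used.

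Spot intensities were corrected with normexp (limma 3.58.1, R 4.3.3; offset 50), fitted on all spots, taken to log2 and quantile normalized over gene probes. The scanner's background column rose with the spot's own signal (Spearman correlations across spots of 0.967 to 0.971) and was kept as an alternative. A probe was detected above the mean plus 2 SD of 480 blank and negative control spots, after 5% was trimmed at each end. A gene with several probes was represented by the one detected on most arrays and then the brightest. With 1 array per group no test was run. The choice of probe per gene and the log2 ratios were tested on simulated data. Those data began from normalized signals, so background correction, normalization and detection were not tested. Python 3.11.15, numpy 2.4.6, pandas 2.3.3 and matplotlib 3.10.9 handled tables and plots.

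The members and lists were chosen with earlier results of these data known. Any member could be named, and from each other list up to 4 genes with the largest absolute log2 ratios at 20 µM against DMSO. Alternatives were no background correction, the background column, an offset of 16, median scaling, the deposited value table, other detection filters, the mean of all detected probes, and GARS1 and KARS1 added to the cytosolic set or to both sets.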

Additional observations from a re-analysis of the deposited data

How the results depend on the processing

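With 1 array per group, no setting measures the spread between cultures, and the technical SD covers only pairs of probes. No paired analysis was possible because each group has 1 array and no test was run. The 15 set medians, differences and counts stayed within the technical SD, or for counts within 1.5 times, under no background correction, an offset of 16, both filters and the deposited value table. That SD is of the ratio of 1 gene, a wide margin for a set median. At 5 µM against DMSO the value table gave a cytosolic median of 0.037 with an offset of 50 and 0.039 without, beside 0.13. The cytosolic minus mitochondrial difference there was 0.072 and 0.10, beside 0.14. Median scaling gave a cytosolic median of -0.10 and a difference from the mitochondrial median of 0.012 for 5 µM against DMSO. It gave a cytosolic median of 0.33 for 20 against 5 µM. For 20 µM against DMSO it left 2 members at least 1.5-fold apart, against 4.53% of all genes. The mean of all detected probes left 1 member at least 1.5-fold apart for 20 against 5 µM, against 1.75% of all genes. The second SARS1 probe lowers that gene's mean. With GARS1 and KARS1 in the cytosolic set or in both sets, the cytosolic median was 0.27 for 20 µM against DMSO, 0.13 for 5 µM against DMSO and 0.14 for 20 against 5 µM.

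Under the scanner's background column, the correlation across genes between 2 probes of the same gene was -0.012 for 20 µM against DMSO, against 0.68 without it, and the SD of a ratio was 0.52. For 20 µM against DMSO it gave a cytosolic median of 0.10 and a cytosolic minus mitochondrial difference of 0.090, with 8 of 35 members at least 1.5-fold and 3 at least 2-fold apart, against 11% and 5.47% of all genes. For 5 µM against DMSO it gave -0.058 and -0.088, with 10 and 6 members, against 8.98% and 4.09% of all genes. For 20 against 5 µM it gave 0.013 and 0.038, with 10 and 6 members, against 10.2% and 4.95% of all genes, and SARS1 turned to -0.21. The cause was not tested. Restricting the sets to genes with a mean signal of 200 or more, chosen after seeing the data, moved none of 9 medians or differences beyond the technical spread. Probes near the detection threshold, such as those of VARS2 and LARS2, limit what can be read from the mitochondrial genes.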
